A study of Mus musculus with 9 samples.

Results

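The heat shock chaperone genes described here are 10 named mouse genes, chosen by symbol, with earlier results of these data known, out of 16937 genes listed in brown adipose tissue. They are the HSP70 genes Hspa1a, Hspa1b and Hspa8, the HSP110 gene Hsph1, the HSP40 gene Dnajb1, the HSP90 gene Hsp90aa1, the small heat shock protein genes Hspb1 and Cryab, and the mitochondrial chaperonin genes Hspd1 and Hspe1. All 10 genes were listed, once each, in all 3 deposited comparisons. None was lost to the filter on low counts.

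Molecular chaperones bind unfolded or partly folded proteins, prevent their aggregation and use cycles of ATP hydrolysis to help them reach the native state. Many of their genes are switched on by heat shock factor 1, which binds inverted repeats of the bases GAA, the heat shock elements, when unfolded proteins draw chaperones away from it. Brown adipose tissue burns fuel to make heat, so its mitochondria import and fold a large protein load, and the chaperonin pair Hspd1 and Hspe1 serves the mitochondrial matrix. Cryab is known best from lens and striated muscle.

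RNA was sequenced from brown adipose tissue of 9 adult mice on the C57Bl/6J background, 3 in each of 3 groups. WT Cold mice were wild type and spent 8 h at 4 °C. GCN2 KO Cold mice carried a whole-body deletion of Gcn2 and had the same cold exposure. WT RT mice were wild type and stayed at 23 °C. All mice were housed singly before and during the exposure, and the study used both sexes, although the sex of each library is not given in the sources used here. GCN2 is the kinase that senses amino acid shortage and phosphorylates the translation factor eIF2alpha. A GCN2 KO group at 23 °C was not analysed here, so GCN2 KO Cold vs WT RT differs in genotype and in temperature together, and the effect of cold was not compared between genotypes. The 3 comparisons share groups pairwise and are not independent of one another.

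Depth ran from 27058799 to 30768064 reads on listed genes per library, and no listed gene had under 61 reads over the 6 libraries of a table. The columns do not name mice, so the letters A, B and C stand for the sorted library codes of a group. WT RT codes start with other letters than the codes of the cold groups, so the library set and cold cannot be told apart. The targeted gene, Eif2ak4, was not reduced in the libraries labelled GCN2 KO Cold. It had 356 ± 13.3 normalized counts there and 209 ± 33.2 in WT Cold (SD, n = 3; log2 fold change 0.78, adjusted p = 0.0932 from limma). The count covers the whole gene, and the part of it that the allele lacks is not given in the sources used here, so the genotype rests on the labels, and "labelled GCN2 KO Cold" is written throughout. The title of 1 of the 3 samples so labelled names both GCN2 KO and WT and leaves out the cold, and that sample was grouped by its genotype and temperature fields. Columns carry only library codes, so which library it is was not determined. All 12 brown adipocyte markers were present in all libraries. Their summed level in CPM, the read count scaled to a common library total, was 19159 to 20873 in WT RT, 26142 to 28247 in WT Cold and 31260 to 31634 in libraries labelled GCN2 KO Cold, without overlap. Limma called 6 of the 12 higher in WT Cold vs WT RT, against 13.6% of all genes, among them Dio2 and Ucp1, and 2 were below 0. Between the cold groups limma called 0 of the 12, against 0.178% of all genes higher. The sum thus holds genes called in the cold and is no measure of adipocyte content alone. Markers of skeletal muscle, a tissue that borders this depot, were lowest in libraries labelled GCN2 KO Cold. Their summed level, over 16 genes of which none was at 0, was 2891 to 3538 CPM in WT RT, 2684 to 4518 CPM in WT Cold and 397 to 1614 CPM in libraries labelled GCN2 KO Cold. The sum of 6 leukocyte markers was 235 to 406 CPM in WT RT, above the 111 to 146 CPM of WT Cold and the 81.0 to 130 CPM of libraries labelled GCN2 KO Cold. That of 4 endothelial markers was 560.3 to 695 CPM in WT Cold and 449.5 to 551 CPM in the other groups, and 5 smooth muscle markers ranged over 233 to 1047 CPM with overlap between groups. In bulk tissue, fewer cells of a type and less RNA per cell cannot be told apart.

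Promoter windows of 7 of the 10 genes were found in RefSeq (mouse build GRCm38.p6), from 250 bases before the start site to 50 after it. They were searched on both strands for paired heat shock element units, either GAANNTTC or TTCNNGAA. The first pair stood in windows of 6 of the 7 genes, Hspa1a, Hspa1b, Hspb1, Hspd1, Hspe1 and Hsph1, and in 7.86% of all 32851 mouse windows of this length. The second pair stood in windows of 3 of the 7, Hspd1, Hspe1 and Hsph1, and in 8.52% of all. GAANNTTCNNGAA (3 units in a row, in which both pairs overlap) stood in the same 3 windows and in 0.603% of all. Both windows of Dnajb1 held neither pair, which says only that these letters are not there. A gene with more than 1 window was counted if any of them matched, whereas the shares over all are of single windows.

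**Figure D1:**
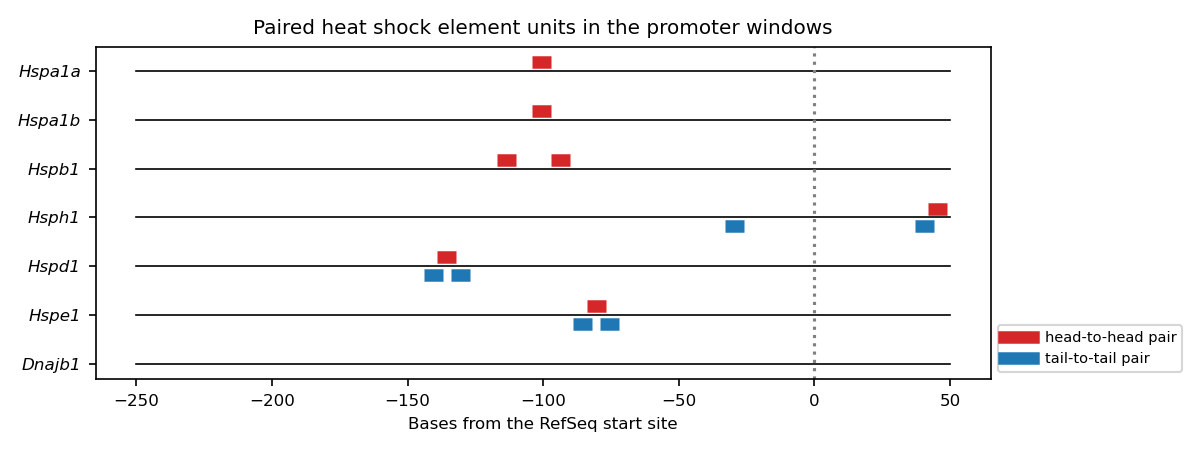
Positions of paired heat shock element units in promoter windows of 7 genes, 1 window per gene. The x axis gives bases from the RefSeq start site (dotted line), each row is a gene, and boxes mark GAANNTTC (head-to-head, red) and TTCNNGAA (tail-to-tail, blue). Hspd1 and Hspe1 each show 3 overlapping boxes and Dnajb1 shows none.

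The upstream windows of Hspa1a and Hspa1b are shown because reads of these copies are hard to assign. They lie on the minus strand of chromosome 17, at chr17:34972157-34972406 for Hspa1a and chr17:34959239-34959488 for Hspa1b, and run 5′ to 3′ from base -250 to base -1, with capitals marking the paired unit at -104 to -97.
Hspa1a: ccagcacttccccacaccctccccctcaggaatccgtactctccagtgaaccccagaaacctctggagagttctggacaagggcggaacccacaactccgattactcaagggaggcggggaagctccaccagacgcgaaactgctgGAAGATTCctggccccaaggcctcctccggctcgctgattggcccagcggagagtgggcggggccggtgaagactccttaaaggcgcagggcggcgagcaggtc
Hspa1b: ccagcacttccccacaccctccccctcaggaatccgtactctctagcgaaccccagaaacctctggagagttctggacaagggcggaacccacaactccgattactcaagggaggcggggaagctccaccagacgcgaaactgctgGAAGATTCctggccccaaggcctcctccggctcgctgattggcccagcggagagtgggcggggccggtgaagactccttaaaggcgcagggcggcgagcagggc
Over the full windows, 296 of 300 bases were identical (98.7%). The 250 bases shown differ at 3 positions, C44T, T47C and T249G, counted from 1 at the first base shown, with the Hspa1a base first. The paired unit is the same in both copies.

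Hspe1 and Hspd1 lie head to head on chromosome 1, and their windows are shown because the same bases, with the same paired units, stand upstream of both genes on opposite strands. The 60 bases at chr1:55088038-55088097 are given on the plus strand for Hspe1 (-110 to -51 from its start) and on the minus strand for Hspd1 (-165 to -106 from its start), with capitals over the overlapping pairs.
Hspe1: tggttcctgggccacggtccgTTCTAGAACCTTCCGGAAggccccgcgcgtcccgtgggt
Hspd1: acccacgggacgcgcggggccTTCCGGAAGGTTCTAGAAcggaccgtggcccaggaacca
The upstream pairs of Hspb1 and Hsph1 are shown because they stand apart from other pairs. The Hspb1 bases are chr5:135887789-135887848 on the plus strand (-130 to -71), with both of its pairs in capitals, and the Hsph1 bases are chr5:149636337-149636396 on the minus strand (-60 to -1), with the upstream pair in capitals.
Hspb1: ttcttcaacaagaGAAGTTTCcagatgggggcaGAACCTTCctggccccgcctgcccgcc
Hsph1: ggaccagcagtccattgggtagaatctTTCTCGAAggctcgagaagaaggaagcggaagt
Hspd1, Hsph1 and Dnajb1 each have 2 start sites in RefSeq, and positions are from 1 of them. The other Hspd1 window held 0 pairs, and the other Hsph1 window holds the same pairs. The 3-unit run of Hsph1 lies downstream of its start, at 37 to 49.

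In WT Cold vs WT RT, 5 of the chaperone genes were higher in the cold. Hspa1a, Hspa1b, Hspa8, Hsp90aa1 and Hspe1 rose, by 1.67-fold for Hspe1 to 2.84-fold for Hspa1a, and none of the 10 fell. These 5 of 10 calls (adjusted p under 0.05 from limma) stand against 13.6% of all genes called higher and 14.1% called lower. Hspa1a, Hspa1b and Hspa8 also passed a log2 fold change of 1, which 2.99% of all genes did in this direction. Hspa1b, at 1.04, was below 1 when scaled to CPM (0.90), without WT Cold library A (0.82) and without WT RT library C (0.94). The fold changes of all 10 were above 0, as were those of 50.2% of all genes, and their median was 0.60 on the log2 scale against 0.0029 over all genes.

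Between the cold groups (GCN2 KO Cold vs WT Cold), Cryab fell and was the only 1 of the 10 that limma called, against 0.227% of all genes called lower and 0.178% called higher. It also passed a log2 fold change of -1, as did 0.196% of all genes. Cryab, Hspa1a and Hspa1b were lower without overlap between the groups, as were 10.7% of all genes, but the adjusted p from limma was 0.0653 for Hspa1a and 0.191 for Hspa1b. DESeq2 on the recovered reads called these 3 lower, against 1.8% of all genes, and edgeR called Cryab, against 0.159%. The other 7 genes had log2 fold changes between -0.084 and 0.44, none of them called by limma, DESeq2 or edgeR. The median of the 10 was 0.060 against -0.0031 over all genes.

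Against WT RT, 4 of the 10 genes rose in libraries labelled GCN2 KO Cold, as did 16.4% of all genes, and 1 fell, as did 17.8%. Hspa8, Hspe1, Hsp90aa1 and Hspd1 rose, by 1.48-fold for Hspd1 to 2.84-fold for Hspa8, and Cryab fell. Hspa8 and Hspe1 passed a log2 fold change of 1, which 3.01% of all genes did, and Cryab one of -1, which 7.58% did. When scaled to CPM, Hspe1 was at 0.98 and did not pass. Hspa1a and Hspa1b, which had risen in WT Cold, had log2 fold changes of -0.66 and 0.15 here and were not called. Without GCN2 KO Cold library A, Hspa1a was at -1.02 and was called lower (adjusted p = 0.0111 from limma). The median was 0.51 on the log2 scale against 0.0091 over all genes. Scaling to CPM in place of size factors moved the median of all genes in this comparison to -0.15, and that of the 10 genes to 0.31.

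**Figure D2:**
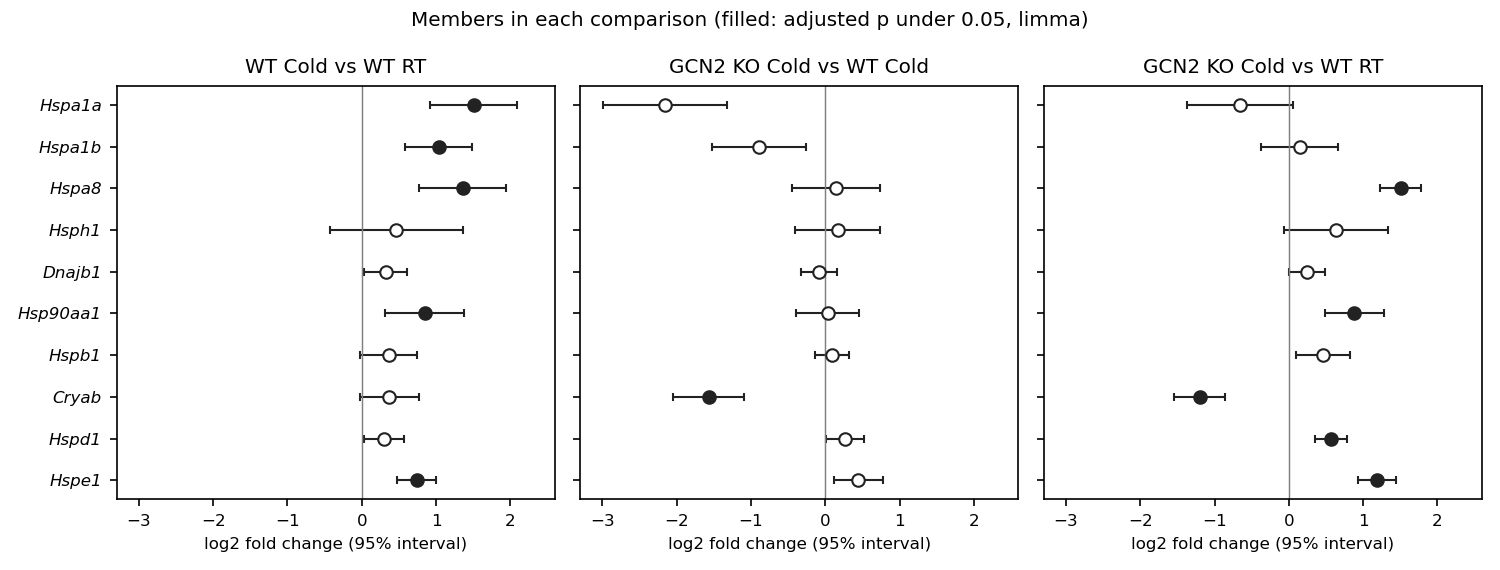
Log2 fold change of each of the 10 genes in the 3 comparisons, with 95% intervals from limma on log2(normalized count + 1), 3 libraries per group. Filled points had an adjusted p under 0.05, which applies to 5 genes in WT Cold vs WT RT, to Cryab in GCN2 KO Cold vs WT Cold and to 5 genes in GCN2 KO Cold vs WT RT.

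Hspa1a and Hspa1b encode the stress-inducible HSP70, the ATP-driven chaperone whose mRNA is scarce in unstressed tissue. Hspa1a had 4.99, 7.18 and 5.68 CPM in WT RT libraries A, B and C, 23.7, 12.0 and 13.9 CPM in WT Cold, and 5.39, 2.68 and 2.33 CPM in libraries labelled GCN2 KO Cold. Every WT Cold library thus lay above all other libraries, and the libraries labelled GCN2 KO Cold overlapped with WT RT. The log2 fold change was 1.51 ± 0.25 (SE) in WT Cold vs WT RT, with an adjusted p of 0.00475 from limma. Between the cold groups it was -2.16 ± 0.36, with an adjusted p of 0.0653 from limma, 0.0694 from edgeR and 1.15e-07 from DESeq2. Leaving out each library in turn gave adjusted p values of 0.061 to 0.271 from limma there.

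Hspa1b was also highest in WT Cold. It had 13.1, 12.9 and 9.95 CPM in WT RT, 32.0, 20.5 and 18.8 CPM in WT Cold and 16.02, 11.5 and 8.13 CPM in libraries labelled GCN2 KO Cold. WT Cold did not overlap with either other group. The log2 fold change was 1.04 ± 0.19 (SE; adjusted p = 0.00712 from limma) in WT Cold vs WT RT and -0.89 ± 0.27 (adjusted p = 0.191 from limma and 0.0365 from DESeq2) in GCN2 KO Cold vs WT Cold. The counts hold unique reads only, so reads that match both copies are missing from both, and 564 bases of Hspa1a exon overlap with the antisense gene Gm20481 in libraries that do not keep the strand. With both copies summed as 1 gene, the log2 fold change was 1.21 (adjusted p = 0.00428 from limma) in WT Cold vs WT RT, -1.29 (0.121) in GCN2 KO Cold vs WT Cold and -0.077 (0.817) in GCN2 KO Cold vs WT RT.

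Muscle marker levels moved with this difference. In WT Cold library C the muscle sum was 2684 CPM, below all WT RT libraries, and Hspa1a and Hspa1b were at 13.9 and 18.8 CPM there. The libraries labelled GCN2 KO Cold had 1614, 1229 and 397 CPM of muscle markers, and both HSP70 copies ranked these libraries in the same order. Within WT Cold and within WT RT, Hspa1b ranked the libraries as the muscle sum did and Hspa1a did not, a description over 3 libraries per group. All 16 muscle markers had fold changes below 0 in GCN2 KO Cold vs WT Cold (median -1.90 on the log2 scale). Limma called 0 of them, against 0.227% of all genes called lower. The part of muscle in the Hspa1a and Hspa1b values was not tested.

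Hspa8 encodes HSC70, the constitutive HSP70 that handles folding, protein transport and clathrin uncoating in most cells. By read share it had the highest mean of the 10 in each group, although it overlapped with Hspd1 in WT RT. Its level was 698, 637 and 774 CPM in WT RT, 2572, 1676 and 1130.4 CPM in WT Cold and 1919, 1573 and 1709 CPM in libraries labelled GCN2 KO Cold. Both cold groups lay entirely above WT RT and overlapped with each other. Fold changes on the log2 scale were 1.36 ± 0.25 (SE; adjusted p = 0.00709 from limma) in WT Cold vs WT RT and 1.51 ± 0.12 (adjusted p = 0.000163 from limma) in GCN2 KO Cold vs WT RT. Between the cold groups it was 0.14, with a 95% interval of -0.45 to 0.74. Hspa8 was high in the libraries labelled GCN2 KO Cold, which had few muscle markers, unlike Hspa1a and Hspa1b. Within WT Cold, Hspa8 ranked the libraries as the muscle sum did (4518, 4141 and 2684 CPM in A, B and C). Within WT RT and within the libraries labelled GCN2 KO Cold it did not. The part of muscle in the Hspa8 values was not tested. The exons of Hspa8 hold 3 small nucleolar RNA genes of the same strand, Snord14c, Snord14d and Snord14e, each at most 90 bases long.

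**Figure D3:**
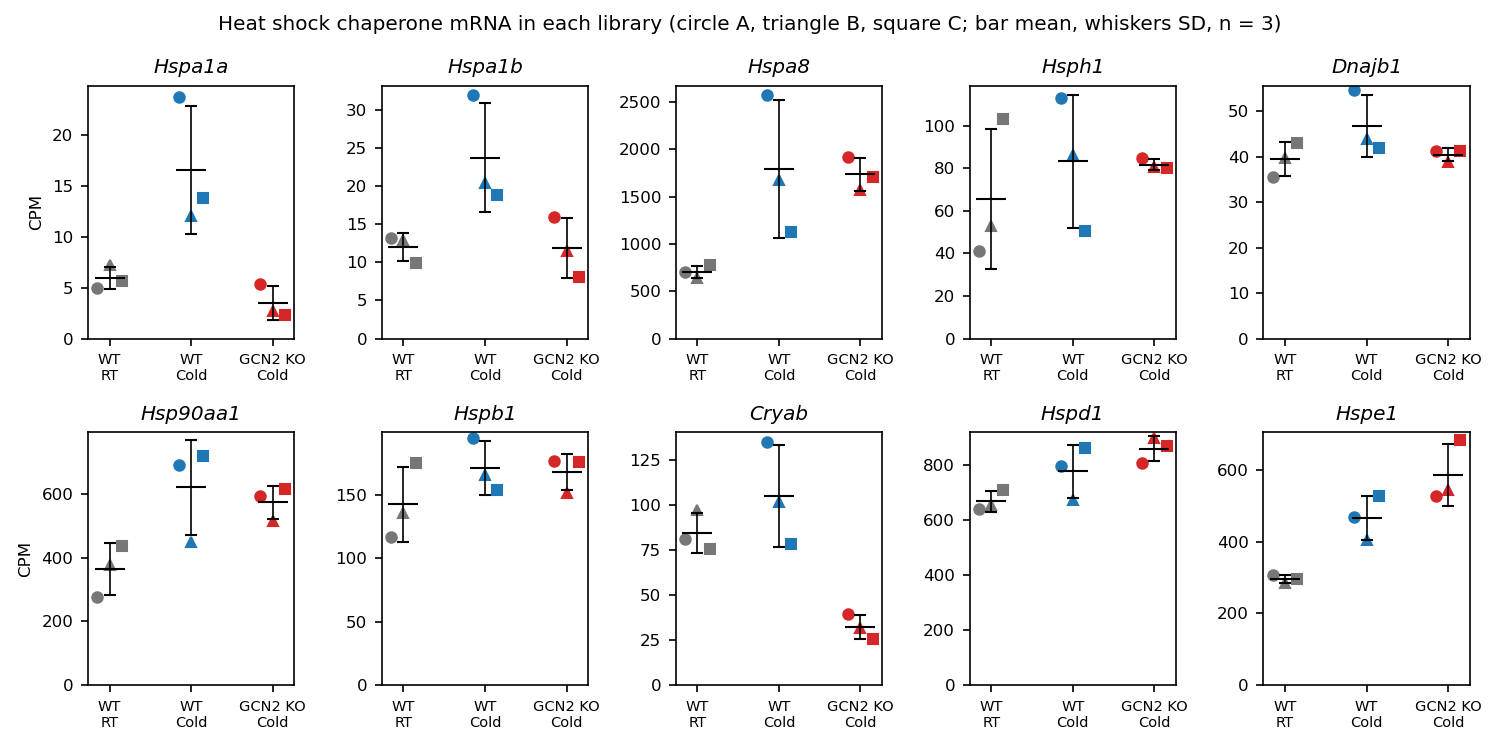
Level of each of the 10 genes in CPM (y axis, linear from 0) in the 9 libraries of the 3 groups (x axis). Points are libraries, bars are means and whiskers are SD (n = 3). WT Cold stands above the other groups for Hspa1a and Hspa1b, both cold groups stand above WT RT for Hspa8, Hsp90aa1 and Hspe1, and the libraries labelled GCN2 KO Cold stand below the rest for Cryab.

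Hsph1 encodes HSP110, the nucleotide exchange factor that recharges HSP70, and Dnajb1 encodes the HSP40 that delivers substrates to it and starts its ATP hydrolysis. Hsph1 had 40.9, 52.8 and 103 CPM in WT RT, 113, 86.4 and 50.6 CPM in WT Cold and 84.7, 80.4 and 80.0 CPM in libraries labelled GCN2 KO Cold. All 3 groups overlapped, with a spread of more than 2-fold within each WT group. Hsph1 was called in no comparison. Its log2 fold change was 0.47 ± 0.39 (SE) in WT Cold vs WT RT, 0.17 ± 0.24 between the cold groups and 0.63 ± 0.30 in GCN2 KO Cold vs WT RT.

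For Dnajb1, the level was 35.6, 39.8 and 43.1 CPM in WT RT, 54.6, 44.0 and 41.8 CPM in WT Cold and 41.2, 38.9 and 41.3 CPM in libraries labelled GCN2 KO Cold. On the normalized scale of the tests, WT Cold did not overlap with WT RT (1304 was its lowest value and 1292 the highest of WT RT), whereas in CPM the groups overlapped. Of the 10 genes, 6 were higher in WT Cold without overlap, against 22.8% of all genes. The log2 fold change of Dnajb1 was 0.32 ± 0.13 (SE; adjusted p = 0.0921 from limma) in WT Cold vs WT RT and -0.084 ± 0.10 (adjusted p = 0.754 from limma) in GCN2 KO Cold vs WT Cold.

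Hsp90aa1 encodes the inducible cytosolic HSP90, which keeps kinases and steroid receptors ready for activation. It had 278, 377 and 439 CPM in WT RT, 692, 451 and 722 CPM in WT Cold and 594, 515 and 615 CPM in libraries labelled GCN2 KO Cold. Both cold groups lay above WT RT. The log2 fold change was 0.85 ± 0.23 (SE; adjusted p = 0.0291 from limma) in WT Cold vs WT RT and 0.88 ± 0.17 (adjusted p = 0.0056 from limma) in GCN2 KO Cold vs WT RT. The first call was lost without WT Cold library A (adjusted p = 0.0863 from limma), without WT RT library A (0.0857) and without WT RT library B (0.075), and by limma without the trend (0.0739). Between the cold groups the log2 fold change was 0.030, with a 95% interval of -0.39 to 0.45, and its sign changed with CPM scaling (-0.087).

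Hspb1 and Cryab encode small heat shock proteins, which hold unfolded proteins without using ATP and guard actin and desmin filaments. For Hspb1, which encodes HSP25 in the mouse, the level was 117, 136 and 175 CPM in WT RT, 195, 166 and 154 CPM in WT Cold and 177, 152 and 176 CPM in libraries labelled GCN2 KO Cold. The groups overlapped and no comparison was called by limma. The log2 fold change was 0.46 ± 0.16 (SE; adjusted p = 0.0574 from limma, 0.0375 from DESeq2) in GCN2 KO Cold vs WT RT and 0.37 ± 0.17 (0.14 from limma) in WT Cold vs WT RT.

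Cryab encodes alphaB-crystallin. It had 80.9, 96.9 and 75.4 CPM in WT RT, 135, 102 and 78.4 CPM in WT Cold and 39.2, 31.9 and 25.5 CPM in libraries labelled GCN2 KO Cold. Every library labelled GCN2 KO Cold lay below all 6 WT libraries, whereas the WT groups overlapped. The fall was 2.97-fold against WT Cold (log2 fold change -1.57 ± 0.21, SE; adjusted p = 0.0439 from limma) and 2.3-fold against WT RT (-1.20 ± 0.15; adjusted p = 0.000908 from limma). The first call was lost on leaving out any 1 library other than WT Cold library C, with adjusted p values from limma of up to 0.208, and the second kept its call in each such fit, with adjusted p values of 0.000633 to 0.00492. WT Cold vs WT RT gave 0.37 ± 0.17 (adjusted p = 0.144 from limma), which became 0.54 and was called without WT Cold library C (0.0153) and was 0.19 without WT Cold library A (0.365).

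Skeletal muscle markers moved with Cryab between the groups. The libraries labelled GCN2 KO Cold were lowest in both, and WT Cold library A was highest in both. Within each cold group Cryab ranked the 3 libraries as the muscle sum did. Within WT RT the order differed, as library B was highest for Cryab and library A for the muscle sum (3538 CPM, against 3128 CPM in B). WT Cold library C had less muscle signal than every WT RT library, and its Cryab level lay below WT RT libraries A and B and above C. Against WT RT, all 16 muscle markers had fold changes below 0 in libraries labelled GCN2 KO Cold (median -1.67 on the log2 scale). Limma called 14 of them lower, against 17.8% of all genes. The part of muscle in the fall of Cryab was not tested. Cryab and Hspb2 lie head to head and share 252 bases of exon on opposite strands in the annotation used here, so some reads of the pair cannot be told apart.

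**Figure D4:**
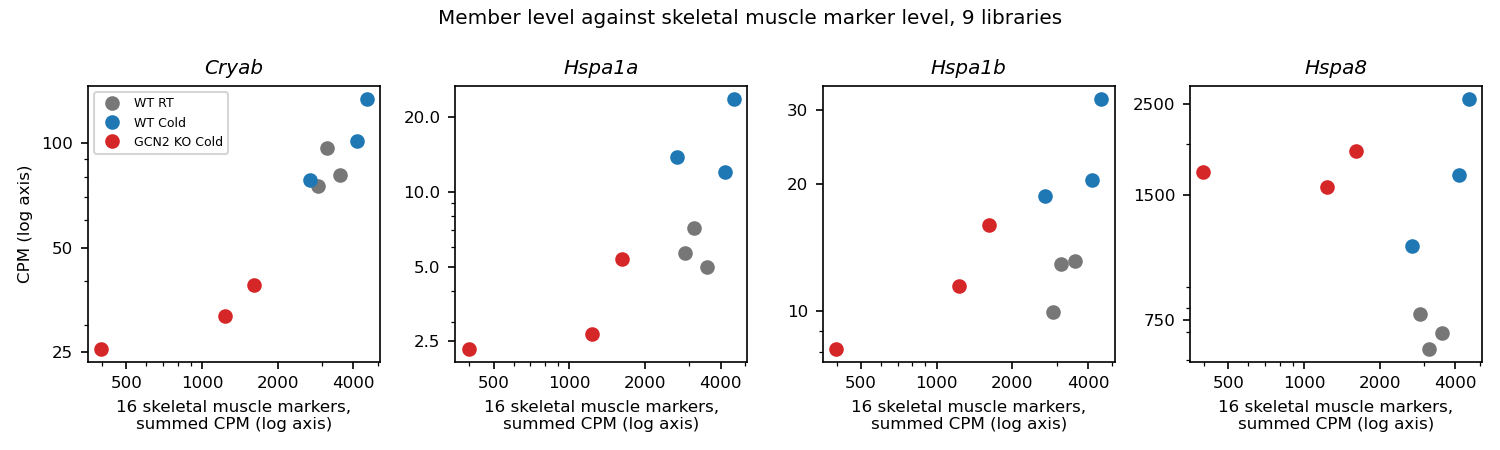
Level of Cryab, Hspa1a, Hspa1b and Hspa8 (y axis, CPM, log scale) against the summed level of 16 skeletal muscle markers (x axis, CPM, log scale) in 9 libraries, 1 point each. The libraries labelled GCN2 KO Cold have 397 to 1614 CPM of muscle markers and 25.5 to 39.2 CPM of Cryab, and Hspa8 is 1573 to 1919 CPM in the same libraries.

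Hspd1 and Hspe1 encode HSP60 and HSP10, the ring and the lid of the mitochondrial matrix chaperonin. Hspd1 had 639.7, 653 and 709 CPM in WT RT, 797, 673 and 861 CPM in WT Cold and 808, 897 and 870.3 CPM in libraries labelled GCN2 KO Cold. WT Cold overlapped with WT RT, and the libraries labelled GCN2 KO Cold stood above WT RT. Fold changes on the log2 scale were 0.30 ± 0.12 (SE; adjusted p = 0.0973 from limma) in WT Cold vs WT RT and 0.57 ± 0.09 (adjusted p = 0.00287 from limma) in GCN2 KO Cold vs WT RT.

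Hspe1 was more separated. Its level was 306, 284 and 295 CPM in WT RT, 469, 405 and 529 CPM in WT Cold and 528, 545 and 685 CPM in libraries labelled GCN2 KO Cold. Both cold groups lay above WT RT, by 0.74 ± 0.11 on the log2 scale for WT Cold (SE; adjusted p = 0.0032 from limma) and by 1.18 ± 0.11 for libraries labelled GCN2 KO Cold (0.000298 from limma). On the normalized scale the cold groups did not overlap, whereas in CPM they did (528.5 in WT Cold library C and 528.1 in GCN2 KO Cold library A). By normalized counts, Hspe1 was the only 1 of the 10 that was higher without overlap in GCN2 KO Cold vs WT Cold, which 11.3% of all genes were. That log2 fold change, 0.44 ± 0.14 (SE), was not called (adjusted p = 0.206 from limma). For Hspd1 it was 0.27 ± 0.11 (adjusted p = 0.309 from limma). Hspd1 and Hspe1, whose windows share the bases printed above, had a Pearson r of 0.90 over the 9 libraries on the log2 CPM scale, a description that mixes the group differences in. The summed brown adipocyte markers, given above, were ordered over the groups as Hspe1 was, and their part in the Hspe1, Hspd1 and Hspa8 values was not tested. The exons of Hspd1 and Hspe1 share 112 bases on opposite strands, which unstranded reads cannot assign.

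Other pairs of the 10 genes differed in how their levels ran together over the same 9 libraries. Hspa1a and Hspa1b had a Pearson r of 0.91, Hspa1a and Cryab 0.85, and Hsph1 and Hspb1 0.90. Cryab and Hspe1 had an r of -0.64, and Hspa1a and Hspe1 -0.17. Points of 1 library share its depth and its tissue makeup, so these values describe the libraries only. Over all genes listed in all 3 tables, the 5 with the highest r with Hsph1, a single-copy inducible gene, were Chordc1 (0.92), Inpp5a (0.90), Hspb1 (0.90), Tmem184c (0.88) and Zfyve16 (0.88). Chordc1 encodes an HSP90 co-chaperone.

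WT RT library C was the highest of its group for Hspa8, Hsph1, Dnajb1, Hsp90aa1, Hspb1 and Hspd1. Without it, limma called 8 of the 10 genes in GCN2 KO Cold vs WT RT in place of 5 (7 higher and 1 lower, against 13.9% and 12.7% of all genes in the same fit), with Hsph1 at a log2 fold change of 1.05 (adjusted p = 0.00159), Hspb1 at 0.65 (0.00585) and Dnajb1 at 0.34 (0.038). In WT Cold vs WT RT, the number called went from 5 to 6, all higher, against 10.1% of all genes higher and 9.47% lower in the same fit, the added gene being Hspb1 at 0.56 (adjusted p = 0.0193 from limma). WT Cold library A was the highest of its group for Hspa1a, Hspa1b, Hspa8, Hsph1, Dnajb1, Hspb1 and Cryab.

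Scaled by exon length, the 10 genes covered a range of more than 100-fold in WT RT. Hspd1 led there with 253 ± 13.97 CPM per kb of exon (SD, n = 3), followed by Hspe1 with 200.2 ± 7.71, Hspa8 with 163 ± 15.9 and Hspb1 with 138 ± 29.0. Hspa8 and Hspb1 overlapped in their libraries. Next came Hsp90aa1 with 92.7 ± 20.7 CPM per kb, Cryab with 57.1 ± 7.57, Dnajb1 with 12.3 ± 1.17 and Hsph1 with 9.02 ± 4.53, the last pair overlapping. Hspa1b with 4.28 ± 0.64 and Hspa1a with 2.01 ± 0.38 CPM per kb were lowest, and apart from each other.

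In WT Cold, Hspa8 had the highest mean, 417 ± 169 CPM per kb (SD, n = 3), but overlapped with Hspe1 (317 ± 41.8), which overlapped with Hspd1 (294 ± 36.2). Hspb1 (167 ± 20.7 CPM per kb) and Hsp90aa1 (158 ± 37.7) overlapped as well, and so did each neighbouring pair among Dnajb1 (14.6 ± 2.14), Hsph1 (11.5 ± 4.30), Hspa1b (8.47 ± 2.56) and Hspa1a (5.57 ± 2.12). Cryab, at 70.9 ± 19.1 CPM per kb, stood apart between these sets. The mean order was the same in libraries labelled GCN2 KO Cold, with Hspa8 (403 ± 40.5 CPM per kb) and Hspe1 (398 ± 58.6) overlapping, Hspb1 (163 ± 13.9) and Hsp90aa1 (146 ± 13.4) overlapping and all other neighbours apart. Cryab was at 21.8 ± 4.61 and Hspa1a at 1.17 ± 0.56 CPM per kb there.

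**Figure D5:**
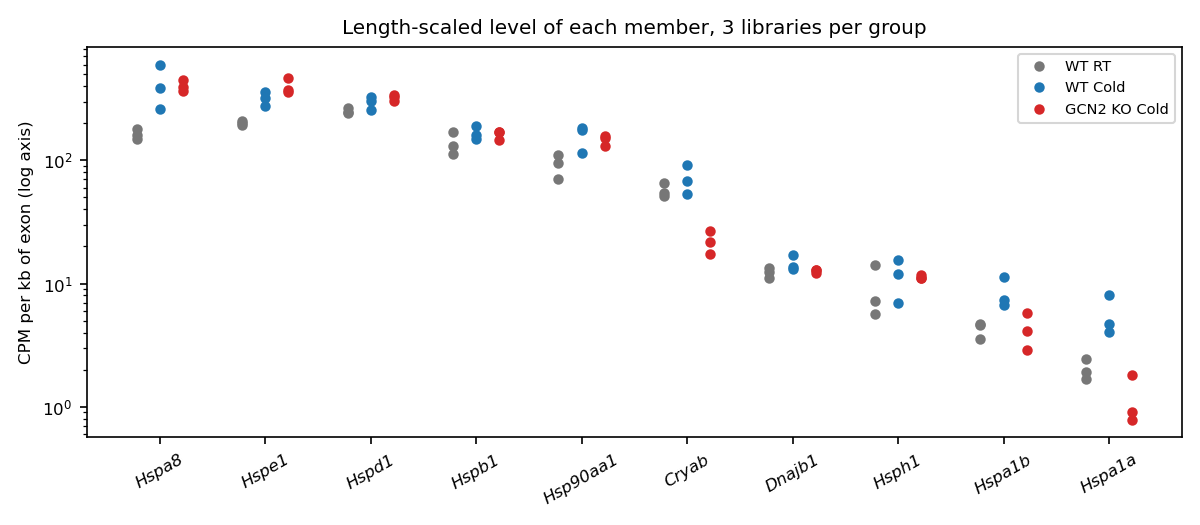
Level of each of the 10 genes in CPM per kb of exon (y axis, log scale) in the 3 libraries of each group, ordered by level along the x axis. Points are single libraries. Hspa8, Hspe1 and Hspd1 have the highest means in every group and Hspa1b and Hspa1a the lowest.

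Among the heat shock factor genes, which drive or restrain the chaperone genes, Hsf1, the main heat-activated factor, was called in no comparison. In WT Cold vs WT RT its log2 fold change was 0.20 (adjusted p = 0.222 from limma), -0.11 in GCN2 KO Cold vs WT Cold (0.703) and 0.09 in GCN2 KO Cold vs WT RT (0.498). Hsf2 rose in WT Cold vs WT RT, from 336 ± 9.21 to 444 ± 33.6 normalized counts (SD, n = 3; adjusted p = 0.0274 from limma). Hsf4 fell in WT Cold vs WT RT, from 125 ± 15.5 to 61.6 ± 9.04 normalized counts (SD, n = 3; adjusted p = 0.00958 from limma), and by 1.0 on the log2 scale in GCN2 KO Cold vs WT RT (0.00801). Hsbp1, which encodes a heat shock factor binding protein, was called in none, and Hsf5 was not listed.

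The lists of other chaperone genes held 112 genes, of which 109, 108 and 108 were tested in the 3 comparisons. In WT Cold vs WT RT, 34 rose and 13 fell, with a median log2 fold change of 0.17, and over all genes 13.6% rose and 14.1% fell. Between the cold groups, 0 rose and 1 fell by limma (0.178% and 0.227% of all genes), and the median was 0.065. Against WT RT, 42 rose and 12 fell, and the median was 0.19, against 16.4% and 17.8% of all genes.

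Of 7 nucleotide exchange factor genes, whose products recharge HSP70, 4 rose and 2 fell in WT Cold vs WT RT, as did 13.6% and 14.1% of all genes. Bag3, the partner of HSP70 and the small heat shock proteins in selective autophagy, had 3093, 2871 and 2633 normalized counts in WT Cold and 1113, 1231 and 1458 in WT RT, without overlap. Its log2 fold change was 1.18 ± 0.12 (SE; adjusted p = 0.000591 from limma), and 0.91 ± 0.11 (0.000883) in GCN2 KO Cold vs WT RT, in which 3 of the 7 rose and 0 fell, against 16.4% and 17.8% of all genes. Hspbp1 (0.59 and 0.83) and Bag5 (0.50 and 0.53) rose in both comparisons, and Bag4 (-0.57) and Bag1 (-0.31) fell in WT Cold vs WT RT.

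Of 18 genes of HSP90 and its co-chaperones, 6 rose and 1 fell in WT Cold vs WT RT (13.6% and 14.1% of all genes), and 9 rose and 0 fell in GCN2 KO Cold vs WT RT (16.4% and 17.8% of all). Fkbp5, a co-chaperone of steroid receptors that is also a known glucocorticoid target, was highest, with log2 fold changes of 2.52 ± 0.15 (SE; adjusted p = 0.000102 from limma) and 2.12 ± 0.18 (0.000219). Cdc37l1 (0.74 and 0.83) and Sugt1 (0.65 and 0.78) followed, and Fkbp4 (-0.31) fell in WT Cold vs WT RT. Among 16 J-domain genes, 6 rose and 1 fell in WT Cold vs WT RT, and 5 rose and 0 fell in GCN2 KO Cold vs WT RT, beside the same shares of all genes. Dnajc27 (1.08), Dnajb5 (0.67) and Dnajb4 (0.52) rose most and Dnajc9 (-0.48) fell in the first comparison, and Dnajc27 (0.75), Dnaja1 (0.69) and Dnajb4 (0.62) rose most in the second.

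Of 9 other HSP70 and HSP110 genes, 2 rose and 2 fell in WT Cold vs WT RT, beside 13.6% and 14.1% of all genes, with Hspa4 (0.41) and the mitochondrial HSP70 gene Hspa9 (0.33) higher and Hspa12a (-0.94) and Hspa14 (-0.57) lower. Against WT RT, 4 rose in libraries labelled GCN2 KO Cold, led by Hspa4l (0.63), Hspa4 (0.51) and Hspa9 (0.37), and 3 fell, beside 16.4% and 17.8% of all genes. Hspa12a (-1.48) and Hspa14 (-0.55) fell there, as did Hspa1l, the HSP70 gene beside Hspa1a on chromosome 17. Hspa1l had 14.9 ± 2.96 normalized counts in libraries labelled GCN2 KO Cold and 44.5 ± 8.77 in WT RT (SD, n = 3; adjusted p = 0.00684 from limma). Against WT Cold its log2 fold change was -1.75 ± 0.28 (SE; adjusted p = 0.0614 from limma). Over the 20 listed genes nearest to Hspa1a and Hspa1b, a set chosen after their values were seen, limma called 0 between the cold groups. Over all genes, 0.178% were called higher and 0.227% lower there. The log2 fold changes of the 20 had a median of -0.061, a lowest value of -1.75 (Hspa1l) and a highest of 0.72 (Msh5). In WT Cold vs WT RT, 2 of the 20 rose and 4 fell, beside 13.6% and 14.1% of all genes. In GCN2 KO Cold vs WT RT, 1 rose and 7 fell, beside 16.4% and 17.8%.

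Of 8 other small heat shock protein genes, 6 were tested in WT Cold vs WT RT. Hspb7 and Hspb8 rose and Hspb11 fell (1.43, 0.52 and -0.49 on the log2 scale), beside 13.6% of all genes higher and 14.1% lower. Hspb6, which encodes HSP20 of muscle, had 927, 857 and 547 normalized counts in libraries labelled GCN2 KO Cold and 2552, 2353 and 1804 in WT Cold, without overlap. It was the 1 gene of the lists that fell in GCN2 KO Cold vs WT Cold (-1.55 ± 0.22, SE; adjusted p = 0.0451 from limma), with 5 of the 8 tested. Hspb6 (-1.26) and Hspb2 (-0.91) fell in GCN2 KO Cold vs WT RT, beside 17.8% of all genes. Hspb7, a cardiac and skeletal muscle gene, had a log2 fold change of -2.22 ± 0.44 (SE; adjusted p = 0.0969 from limma) in GCN2 KO Cold vs WT Cold. Hspb6 and Hspb7 ranked the libraries of each cold group in the same order as the muscle markers did, and the part of muscle in their values was not tested.

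Of 14 other genes of mitochondrial chaperones and proteases, 5 rose and 1 fell in WT Cold vs WT RT (13.6% and 14.1% of all genes), and 7 rose and 1 fell in GCN2 KO Cold vs WT RT (16.4% and 17.8% of all). This list shares Hspa9 with the HSP70 list and Trap1 with the HSP90 list. The rise of Hspa9 given above is counted again here in both comparisons. Grpel2, an exchange factor of the matrix HSP70, rose by 0.61 and 0.67 on the log2 scale, and Dnajc15, a J-domain protein of the import motor, by 0.36 and 0.66. Dnaja3 (0.52) was among the 3 largest rises of the first comparison and Dnajc19 (0.67) of the second, and Htra2, a protease of the intermembrane space, fell in both (-0.58 and -0.56).

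The cytosolic chaperonin TRiC and prefoldin list of 15 genes had 2 higher (Cct2, 0.32, and Cct3, 0.30) and 1 lower (Cct6b, -1.74) in WT Cold vs WT RT, no more than the 13.6% and 14.1% of all genes. It had 8 higher in GCN2 KO Cold vs WT RT, led by Pfdn4 (0.67), Cct3 (0.48) and Vbp1 (0.40), and 2 lower, Cct6b (-1.45) and Cct4 (-0.21), beside 16.4% and 17.8% of all genes. Of 8 other heat-inducible genes, 3 rose and 1 fell in each of these comparisons, and the 1 that fell is about the share of all genes. Hmox1, the heme oxygenase gene (1.08 and 0.68), and Dedd2 (0.66 and 0.61) rose in both, Zfand2a (0.31) rose in GCN2 KO Cold vs WT RT, and Serpinh1, which encodes the collagen chaperone HSP47, fell in both (-0.82 and -0.87). Of 14 ER chaperone genes, 4 rose and 2 fell in each, with the fall again at about the share of all genes and medians of -0.083 and -0.020 on the log2 scale. Dnajb9 (0.82 and 0.68) and Manf (0.70 and 1.05) rose in both, Hspa5, the ER HSP70 gene (0.32), and Canx (0.39) were the next largest rises of the respective comparisons, and Pdia4 (-0.74 and -0.90) and Pdia6 (-0.63 and -0.70) fell in both.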

How the data were processed

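Brown adipose tissue RNA was compared over 9 samples in groups of 3. Per the study's methods and the submitters' processing notes, the authors trimmed reads (Trimmomatic 0.36), aligned them with STAR 2.5.2b (build GRCm39), counted unique reads in exons with featureCounts (Subread 1.5.2) and compared groups with DESeq2. The library kit does not mark strand. The deposited tables, 1 per comparison, hold a signal per gene and library, which the text calls a normalized count. It is the read count over a size factor that the authors set anew for each table. The deposited log2 fold changes and p-values are the authors' own DESeq2 comparisons and were not used. Columns name library codes, and a code was put in a group by the tables in which it occurs. Columns belonging to other samples numbered 0.

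Whole reads were recovered for 100% of values (within 0.01 of a whole read). As the values are not raw counts, groups were tested with limma 3.58.1 (R 4.3.3) with a mean-variance trend on log2(value + 1), 2 groups per fit, two-sided, with Benjamini-Hochberg adjustment over all 16679, 16312 or 16560 genes of a table. Fold changes on this scale are understated for low genes. Calls needed an adjusted p under 0.05. The study's further threshold, an absolute log2 fold change over 1, is given beside them. DESeq2 1.42.0 and edgeR 4.0.16 on the recovered reads were alternatives, as were another pseudocount, filter, scaling or fit, and fits without 1 library. Levels are CPM of the recovered reads, and levels between genes are CPM per kb of exon (GENCODE M21). The labels call the samples biological replicates.

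The 10 genes and all lists were chosen with earlier results of these data known. Named from the lists were the heat shock factors and, per list and comparison, up to 3 called genes with the largest rise and up to 3 with the largest fall, except 1 gene that is not reported here. Scripts were tested on simulated data. Promoter sequences are RefSeq's, and no coordinates on the authors' build are given.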

Additional observations from a re-analysis of the deposited data

How the results depend on the processing

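Of 426 recomputed fold changes of the 10 genes, 392 kept their direction and their side of the threshold, 11 gained and 10 lost a call, and 13 changed sign. With a log2 fold change over 1 required as well, 3 genes were called in WT Cold vs WT RT and 3 in GCN2 KO Cold vs WT RT. In GCN2 KO Cold vs WT Cold, 3 were called by DESeq2 (all lower, against 1.8% of all genes), 2 with CPM scaling, 2 with all 9 libraries in 1 fit and 0 by limma without the trend. Leaving out 1 library gave 4 to 6 calls in WT Cold vs WT RT, 0 to 1 between the cold groups and 5 to 8 in GCN2 KO Cold vs WT RT, and medians of 0.49 to 0.83, -0.14 to 0.14 and 0.32 to 0.65. Apart from the fits whose shares are given above, the share of all genes called in each fit is not given. Whether these counts moved more than the calls over all genes can therefore not be told. CPM scaling gave a median of 0.31 in GCN2 KO Cold vs WT RT. The fit of all 9 libraries was made on CPM, so it has the same fold changes and is no separate check of the scaling. CPM also changed the sign of Hspb1 (-0.027) and Hsp90aa1 (-0.087) between the cold groups and of Hspa1b (-0.050) in GCN2 KO Cold vs WT RT. Leaving out 1 library changed signs between the cold groups too, with ranges of -0.13 to 0.43 for Hspa8, -0.14 to 0.40 for Hsph1, -0.18 to 0.17 for Hsp90aa1 (-0.027 without GCN2 KO Cold library C) and -0.14 to 0.015 for Dnajb1. In GCN2 KO Cold vs WT RT, Hspa1b ranged from -0.091 to 0.39 in the same way and was -0.077 when summed with Hspa1a. None of the values that changed sign was called by limma. Hspa1a between the cold groups was called by limma with CPM scaling (adjusted p = 0.0488) and, on the same scale, with all 9 libraries in 1 fit (0.0107). Both fits used log2(CPM + 1), in which the added 1 stands for more reads than 1 normalized count does. They thus changed the pseudocount as well as the scaling. With a pseudocount of 10 on normalized counts, Hspa1a was not called (adjusted p = 0.0568 from limma). The cause of these changes was not tested. No paired analysis was possible because the columns carry no replicate numbers. What depth limits was not compared with the spread between libraries.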
